A study of Mus musculus with 9 samples.

Results

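The B population of Comma-1D, a mouse mammary epithelial cell line, is the fraction with high Sca-1 and low EpCAM at the surface, and its responses to the oncogenes MYC and Her2 were described from 3 of the 9 libraries of the series: B control, B MYC and B Her2. The other 6 libraries are the same 3 arms of the L population (Sca-1 low, EpCAM high) and of the bi population (both high). All cells were grown in DMEM:F12 with fetal calf serum, EGF and insulin, so every library, controls included, comes from cells supplied with a ligand of the EGF receptor. The MYC and Her2 arms were transduced with the activated oncogene. The labels give neither the species and promoter of the transgenes, nor what the control cells carried, nor whether arms were separate cultures, so oncogene and transduction cannot be told apart. Each population and arm has 1 library. Ratios within B are therefore descriptions of these libraries without a test, and both B ratios share the B control library.

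MYC is a transcription factor that pairs with MAX at E-box sequences and is known for driving ribosome production, nucleotide synthesis and entry into the cell cycle. Its MXD and MXI relatives pair with MAX too and repress. Her2 (Erbb2) is a receptor tyrosine kinase without a ligand of its own. It pairs with the other ERBB receptors and signals through RAS and ERK and through PI3K and AKT. ERK signalling is known to induce EGF family ligands, which form a loop back onto the receptor, while AKT restrains the FOXO factors. In the mammary gland, basal cells carry keratins 5 and 14, p63 and, when contractile, smooth-muscle actin.

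Both targeted genes were highest of the B libraries in the arm named for them. Myc stood at 111.3 CPM (reads per 1 M, scaled by TMM) in B control, at 283.7 in B MYC and at 167.8 in B Her2. Erbb2 was at 52.16, 56.47 and 188 CPM in the same order. Of the sort markers, Ly6a (Sca-1) was at 56.55, 111.6 and 19.32 CPM, and Epcam had 43, 8 and 16 reads. Their level between populations is set by the sort. Basal genes were abundant. Krt5 was at 1392, 1321 and 564.8 CPM and Trp63, which encodes p63, at 590.3, 744.6 and 426.7. Of the contractile markers, Cnn1 (calponin) was scarce at 2.22, 0.364 and 0.286 CPM, as was Myh11 (smooth-muscle myosin) at 0.191, 0.0456 and 0.0952. Acta2, Tagln and Oxtr, given below, were at higher levels in B control. The 19 luminal and epithelial markers summed to 5.85 to 10.2 CPM in B, against 993 CPM or more in every L and bi library, and Kit and Ovol2 had no reads in B. Immune markers summed to 3.51 to 9.34 CPM, with Adgre1 at 0, and endothelial markers to 3.35 to 6.51. Depth was 54.01, 46.92 and 51.66 M reads for B control, MYC and Her2, and 53.39 to 98.87 M in L and bi. In B, 9.707% to 12.85% of reads fell on ribosomal-RNA loci, and ribosomal protein genes 2.539%, 3.957% and 3.331% in B control, MYC and Her2. With ribosomal-RNA, mitochondrial and small RNA genes left out of the totals, 1179 genes in place of 1182 were past 2-fold in B MYC and 1510 in place of 1519 in B Her2. The part of the ribosomal protein share in the ratios was not tested. In libraries of bulk RNA, fewer cells of a kind and less RNA per cell cannot be told apart.

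Of 54281 genes in the files, 13724 had a mean of at least 1 CPM over the B libraries and were compared. Past 2-fold (a log2 ratio of at least 1 in size), 587 genes were higher in B MYC than in B control (4.28%) and 595 lower (4.34%), or 8.61% either way. In B Her2, 720 were higher (5.25%) and 799 lower (5.82%), or 11.1% either way. Counts of list members in B are read against these shares. The median ratio over all compared genes was 0.14 on the log2 scale for MYC and 0.14 for Her2. With library totals in place of TMM it was -0.05 and 0.07, and with the deposited TPM -0.28 and -0.06, so list medians are read against these values. The split of calls moved with the scaling, with 309 higher and 898 lower for MYC by library totals and 162 and 1437 by TPM. For Her2 it was 447 and 1123 by TPM.

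Genes past 2-fold were then sorted by what they did in both arms. A gene counted as moving with one oncogene alone when the ratio of the other was under 0.5 in size. Both arms were higher for 198 genes (1.44%) and lower for 292 (2.13%). With MYC alone 153 genes were higher (1.11%) and 127 lower (0.925%), and with Her2 alone 219 were higher (1.6%) and 237 lower (1.73%). The arms went opposite ways in 15 genes higher with MYC and lower with Her2 (0.109%) and in 29 genes with the reverse (0.211%). Another 897 lay between the classes (6.54%) and 11557 were past 2-fold in neither arm. At the edge of the MYC-alone class, the ligand gene Ereg stood inside with a Her2 ratio of -0.49 and would have left it at -0.50.

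**Figure D1:**
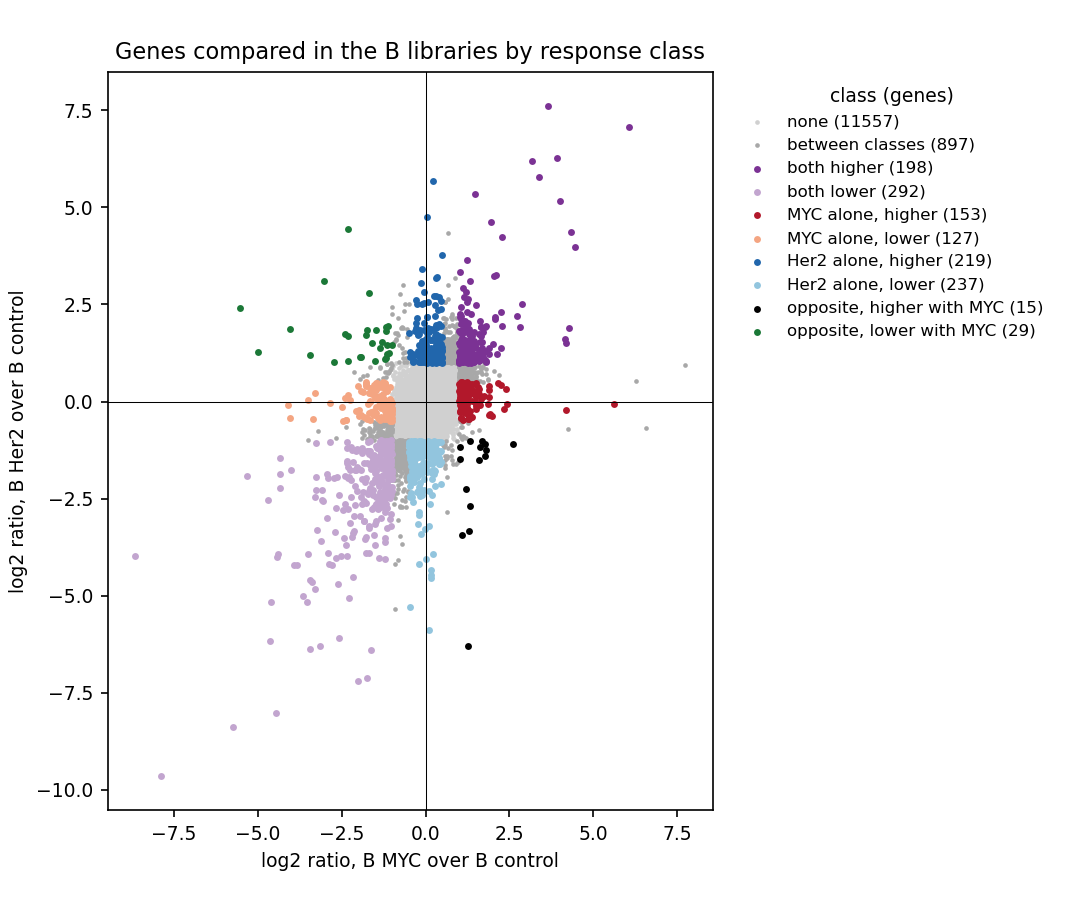
Log2 ratio of B MYC over B control (x axis) against B Her2 over B control (y axis) for each compared gene, coloured by class with the number of genes in each. Both axes share the B control library, so the spread along the rising diagonal is not a result. The 29 genes lower with MYC and higher with Her2 lie at the upper left, and the 15 with the reverse pattern at the lower right.

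The opposite class lower with MYC and higher with Her2 held 29 genes, with Areg and Hbegf of the EGF family ligands among them. Areg, the amphiregulin gene (chr5:91139599-91148432 on GRCm38), whose product is an EGF receptor ligand, was at 15.72 CPM in B control, at 0.934 in B MYC and at 57.68 in B Her2. The log2 ratio was -4.03 for MYC (95% counting interval -4.56 to -3.62) and 1.87 for Her2 (1.77 to 1.98). Hbegf, another ligand of the same receptor, was at 44.82, 19.38 and 95.57 CPM, with ratios of -1.21 and 1.09. That the MYC library is the lowest and the Her2 library the highest for both follows from the rule of the class.

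Hmga2, a chromatin architecture gene of embryonic and tumour cells, was at 156.3 CPM in control, 31.16 in MYC and 322.4 in Her2. The log2 ratios were -2.33 (-2.41 to -2.24) and 1.04 (1.01 to 1.08). Cdkn1a, which encodes the CDK inhibitor p21, was at 8.565, 3.758 and 32.6 CPM. Spp1, the gene of the secreted phosphoprotein osteopontin, was at 560.1, 145.6 and 1243 CPM. That the Her2 library is the highest and the MYC library the lowest of the B libraries in each follows from the rule of the class. Wnt7a, a Wnt ligand gene, was at 0.799, 0.137 and 17.89 CPM, with 6 reads in the MYC library and a wide interval there (-4.07 to -1.32). Further members named by the rule were the granulocyte growth factor Csf3 (-1.70 and 2.78), the adhesion gene Alcam (-2.32 and 1.69) and the potassium channel gene Kcnn4 (-1.76 and 1.70). By the deposited TPM the Her2 ratios of Hmga2 (0.85), Hbegf (0.93) and Spp1 (0.96) came under 2-fold.

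The L and bi libraries, which played no part in forming the class, moved the same way for most of its members. Of the 29 genes, 17 were at least 2-fold lower in L MYC, against 4.16% of all compared genes (6.76% either way), and 20 were at least 2-fold higher in L Her2, against 4.76% (8.37% either way). In bi, 16 were lower with MYC (background 6.05%, 10.8% either way) and 16 higher with Her2 (background 3.72%, 6.04% either way). None was past 2-fold the other way, other than 1 gene in bi Her2. Areg itself was at 11.85, 2.62 and 121.1 CPM in L control, MYC and Her2, and at 13.81, 2.021 and 77.95 in bi. A model of the 6 L and bi libraries took the populations as the replicates, so its p-values measure the spread between them. In it Areg fell with MYC (log2 fold change -2.46, SE 0.24, edgeR quasi-likelihood adjusted p = 0.0252) and rose with Her2 (2.94, SE 0.24, adjusted p = 0.0457), and both calls held in all 9 alternatives. Hmga2 fell with MYC there (-2.31, SE 0.33, adjusted p = 0.0261), 1 of 5 genes of the class that passed, all lower. Alcam was past 2-fold in neither L nor bi, with ratios of -0.75 to 0.01.

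**Figure D2:**
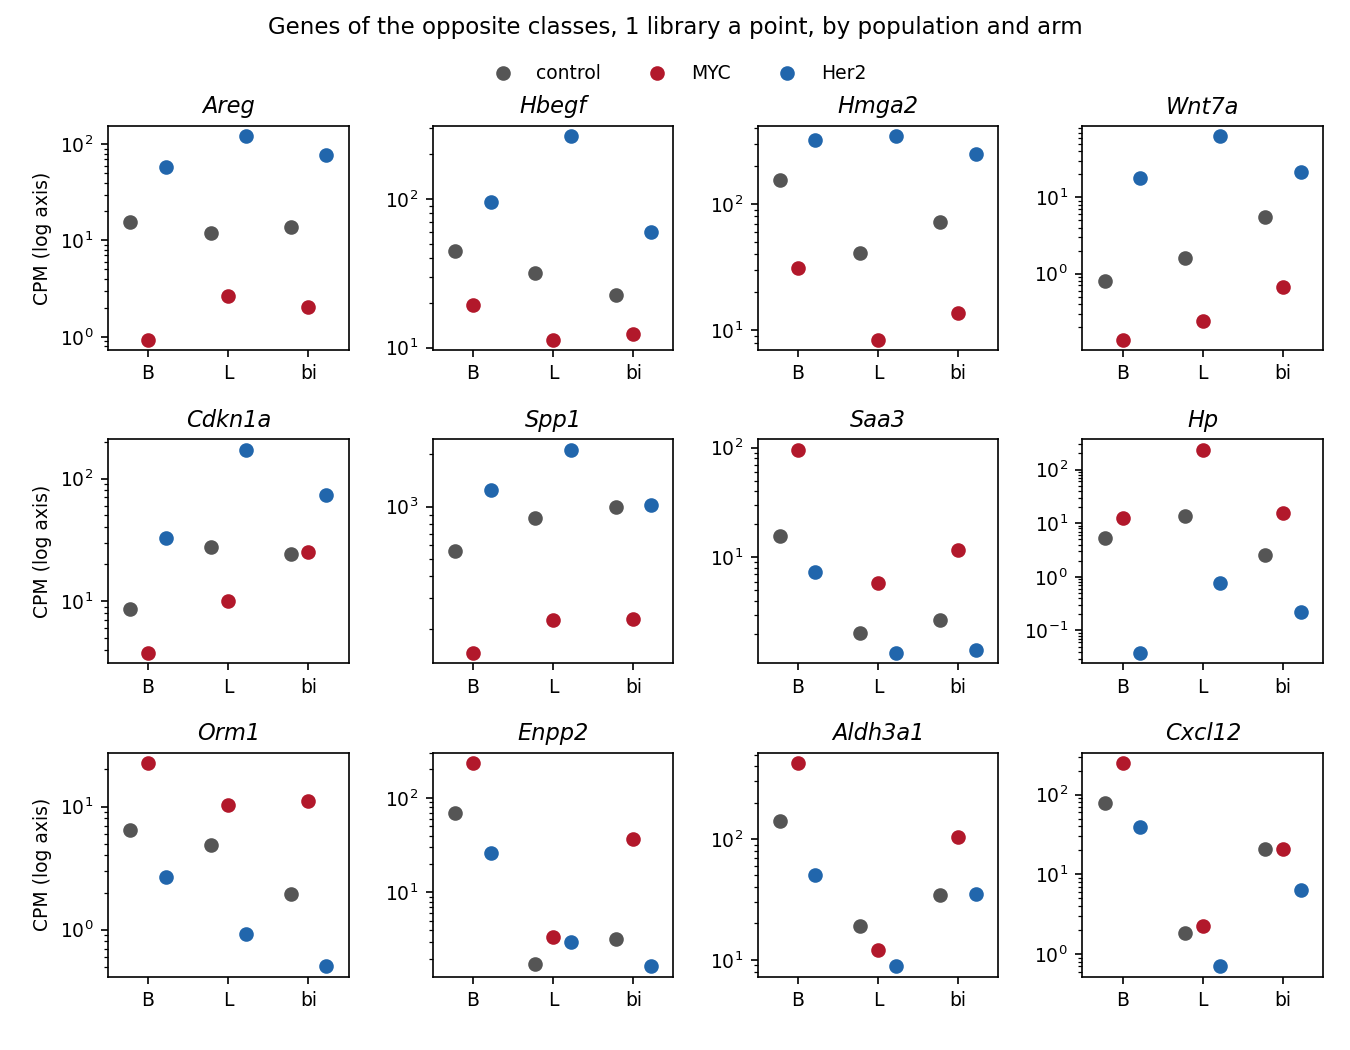
CPM on a log axis of 12 genes of the opposite classes in the B, L and bi libraries of the control, MYC and Her2 arms, with 1 point for each library. The y axes differ between genes and do not start at 0. For Areg, Hbegf, Hmga2 and Wnt7a the MYC library is the lowest and the Her2 library the highest in all 3 populations, and for Saa3, Hp and Orm1 the order is the reverse. Cxcl12 differs from its control in B MYC but not in bi MYC, at 250.1 and 20.97 CPM.

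The list of EGF family ligands had 10 compared members, of which 4 were lower in B MYC and none higher (median -0.58), where 4.34% of all compared genes were lower. In B Her2, 2 were higher and 1 lower, beside 5.25% and 5.82% of all compared genes (median 0.20, which became -0.33 with the deposited TPM). Ereg, the epiregulin gene, was at 158.2, 28.36 and 112.5 CPM in B control, MYC and Her2, and Epgn, the epigen gene, at 30.07, 11.59 and 20.8. These were lower in B MYC, whereas in B Her2 their ratios were -0.49 and -0.53. In L and bi the Her2 ratios of Ereg were 1.60 and 1.06, in the other direction from B. With MYC, Ereg fell in the model of L and bi (-2.42, SE 0.19, adjusted p = 0.0141). The neuregulin gene Nrg1, whose product binds ERBB3 and ERBB4, was at 63.94, 47.36 and 112.3 CPM in B. Of the receptors, Egfr was at 230.2, 277.2 and 105.3 CPM and Erbb3 at 2.589, 5.558 and 9.439, while Erbb4 had no reads in B.

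Genes of feedback on ERK followed the ligands in part. Of 16 compared members 5 were lower in B MYC (median -0.53), beside 4.34% of all compared genes. In B Her2 1 was higher and 1 lower (median 0.14, and -0.08 among genes of at least 10 CPM). Dusp6, which encodes a phosphatase specific for ERK, was at 309.5 CPM in B control, at 139.8 in B MYC and at 128.9 in B Her2, thus lower in both. With Her2 the ratio of Dusp6 was -1.26 in B, but 0.66 in L and 0.47 in bi. Dusp5, a nuclear ERK phosphatase gene, was at 33.62, 7.699 and 57.32 CPM. Spry4, a gene of a feedback inhibitor of receptor tyrosine kinases, was at 2.033, 0.570 and 2.874 CPM. In L Her2 7 of the 16 genes were at least 2-fold higher and in bi Her2 5, where 4.76% and 3.72% of all compared genes were. In B Her2 it was 1 of 16, beside 5.25%. Ptgs2, the cyclooxygenase gene that ERK and NF-kB induce, was at 441.1, 114 and 664.4 CPM in B, and Odc1, the ornithine decarboxylase gene of polyamine synthesis, at 202.1, 104.4 and 584.5. Odc1 is a textbook target of MYC, and it was lower in the MYC library of every population (-0.95 in B, -1.77 in L, -2.11 in bi).

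The other opposite class, higher with MYC and lower with Her2, included the acute-phase genes Saa3, Orm1 and Hp. Saa3, a serum amyloid gene, was at 15.62 CPM in B control, at 95.92 in B MYC and at 7.365 in B Her2. The log2 ratios were 2.62 (2.51 to 2.72) and -1.08 (-1.26 to -0.91). Orm1, which encodes the plasma carrier orosomucoid, was at 6.463, 22.64 and 2.683 CPM. Hp, the haptoglobin gene (chr8:109575128-109579172), had 303, 552 and 2 reads, or 5.264, 12.57 and 0.038 CPM. Its level in control was 138.3 times that in Her2 with a counting interval of 37.96 to 1147. Beyond the acute phase stood Enpp2, the gene of the enzyme that makes lysophosphatidic acid (69.1, 234.5 and 26.15 CPM), Aldh3a1, an aldehyde dehydrogenase gene (142.3, 427.5 and 50.32), and Fam189a2 (6.046, 12.8 and 0.533). The chemokine gene Cxcl12 was at 78.74, 250.1 and 38.69 CPM. By TPM the MYC ratios of Hp and Fam189a2 came under 2-fold, at 0.93 and 0.64.

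Across the 9 compared acute-phase and innate defence genes, 5 were higher and 1 lower in B MYC (median 1.25) and 1 was higher and 7 lower in B Her2 (median -1.26). Of all compared genes 4.28% were higher and 4.34% lower in B MYC, and 5.25% and 5.82% in B Her2. Without a filter on level the MYC median was 0.45. Lcn2, the gene of the iron-scavenging lipocalin, was at 8.253, 34.28 and 14.25 CPM, past 2-fold with MYC (2.05) and not with Her2 (0.79), and Lbp, which encodes the endotoxin-binding protein, at 14.26, 3.166 and 0.59, lower in both. The 1 gene higher in B Her2 was Orm2, a copy close to Orm1 between which reads may be split, at 0.122, 2.711 and 0.4 CPM. Cp, the ceruloplasmin gene, was at 711.8, 1061 and 270.2 CPM and C3, the central complement gene, at 635.8, 1068 and 238.7. Of 8 compared complement components, 1 was higher in B MYC (median 0.80) and 4 lower in B Her2 (median -1.09), beside 4.28% and 5.82% of all compared genes. C1s1, a protease gene of the classical pathway, was at 311.8, 554.7 and 103.1 CPM. The MYC ratios of C3 (0.75) and C1s1 (0.83) were under 2-fold.

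Medians for the acute-phase list were 1.09 with MYC and -1.06 with Her2 in L, and 2.10 and -0.90 in bi. Of the 15 genes of the class, 4 were higher in L MYC (background 2.6%) and 10 in bi MYC (4.72%), and 11 were lower in L Her2 (3.61%) and 6 in bi Her2 (2.32%). In the model of L and bi, Hp rose with MYC (3.46, SE 0.43, adjusted p = 0.0261), as did Saa3 (1.86, SE 0.31, adjusted p = 0.0317). Without the bi control library the adjusted p of Saa3 was 0.172, and its call was also lost without bi MYC. Lbp rose with MYC in L and bi (1.99, SE 0.21, adjusted p = 0.0261), the other direction from its B ratio of -2.16. The interaction of population and MYC for Lbp had an adjusted p of 0.165.

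Of 23 compared genes of the unfolded protein and ATF4 list, 10 were past 2-fold higher in B Her2, 6 of them in the class of Her2 alone. Of all compared genes 5.25% were higher there. ATF4 is a transcription factor made when translation initiation is restrained, as in amino-acid shortage or stress of the endoplasmic reticulum. Trib3 (chr2:152337422-152344032), a pseudokinase gene induced by ATF4, was at 3.944, 4.032 and 107.6 CPM in B control, MYC and Her2, a Her2 ratio of 4.76 (4.58 to 4.97). Asns, which encodes asparagine synthetase, was at 55.77, 88.31 and 349.7 CPM (Her2 ratio 2.65). Cth, the gene of cystathionine gamma-lyase in cysteine synthesis, was at 10.77, 14.71 and 64.78 CPM (2.58). In all 3 genes the B Her2 library was far above both other B libraries.

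None of the 23 was lower in B Her2 (median 0.84), and in B MYC none was higher and 1 lower (median -0.17). The 10 higher in B Her2 were Trib3, Chac1, Asns, Cth, Ddit3, Sesn2, Atf3, Slc7a11, Psat1 and Phgdh. Chac1, a glutathione-degrading enzyme gene, was at 6.724, 4.214 and 53.82 CPM, and Ddit3, which encodes the stress factor CHOP, at 17.95, 14.65 and 67.37. Atf4 mRNA was at 207.3, 203 and 371.6 CPM. The chaperone genes of the endoplasmic reticulum, which ATF6 and XBP1 are known to control, were not among them. Hspa5, the BiP gene, was at 457.2, 282 and 396.5 CPM, Hsp90b1 at 861.1, 522.8 and 596, and Calr, the calreticulin gene, at 643.6, 405.8 and 379.4. Mthfd2 and Shmt2 of mitochondrial folate metabolism and Slc7a5 are also known to be induced by ATF4, and whether it acted here was not tested. They were 3 of the 4 genes past 2-fold higher in B Her2 among 30 MYC targets, where 5.25% of all compared genes were. Mthfd2 was at 39.39, 18.27 and 151.6 CPM, Shmt2 at 255.1, 326.5 and 601.4, and Slc7a5, encoding a subunit of a neutral amino-acid transporter, at 111, 117.6 and 414.4.

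Other genes that led the Her2-alone class were Fam171b (1.703, 2.414 and 23.56 CPM), Disp2 (1.807, 1.731 and 12.86), the neurotrophin gene Bdnf (3.301, 3.189 and 19.24) and the uridine phosphorylase gene Upp1 (8.166, 6.879 and 46.97). Bdnf, Disp2 and Upp1 were past 2-fold higher in L Her2 and bi Her2 too, with ratios of 1.07 to 2.84, while Fam171b was not (0.36 and 0.02).

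Promoters of the list were read because 10 of its members were past 2-fold in 1 direction. The motif TGATGNAA, in which ATF4 pairs with a C/EBP factor, was searched on both strands from 250 bases before to 50 bases after the annotated start. It was chosen after the ratios had been seen. It occurred in 7 of 23 promoters of the list (30.4%, for 21 of the 23 genes), in 2.29% of the promoters of compared genes and in 3.97% of all promoters in the table. A match is a description of the letters and not a site shown to be bound. The list holds genes known to respond to ATF4, so an excess of the motif in it is no result about these libraries. In the windows of 5 members higher in B Her2 or close to 2-fold, capitals mark the match, which reads TGATGNAA on the strand of the gene in Asns and Slc7a11 and on the other strand in Chac1, Atf3 and Vldlr. All are from RefSeq on GRCm38.p6, written 5′ to 3′ on the strand of the gene: Asns chr6:7693210-7693252 (minus), Chac1 chr2:119351029-119351076 (plus), Atf3 chr1:191183416-191183463 (minus), Slc7a11 chr3:50443652-50443699 (minus) and Vldlr chr19:27216800-27216847 (plus).
Asns: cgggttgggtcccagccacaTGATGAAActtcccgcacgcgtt
Chac1: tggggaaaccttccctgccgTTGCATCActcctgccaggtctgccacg
Atf3: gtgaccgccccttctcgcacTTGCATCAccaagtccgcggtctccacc
Slc7a11: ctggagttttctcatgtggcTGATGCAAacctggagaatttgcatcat
Vldlr: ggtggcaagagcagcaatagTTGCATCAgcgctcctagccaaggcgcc
The matches begin 23 bases before the start in Asns, 193 in Chac1, 110 in Atf3, 66 in Slc7a11 and 200 in Vldlr. Slc7a11 holds a further match on the other strand 47 bases before the start. Herpud1, with a Her2 ratio of 0.77, has a match 112 bases before its start that is not shown. Trib3 and Ddit3 had none in this window.

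Median Her2 ratios of the list were 0.20 in L and -0.04 in bi, with 3 of 23 genes at least 2-fold higher and 2 lower in L Her2 (all compared genes, 4.76% and 3.61%), and 1 higher in bi Her2 (3.72%). Trib3 was at 20.41 CPM in L control and 71.4 in L Her2, and at 13.9 and 16.55 in bi. Chac1 was at 5.245 and 26.46 in L, and at 7.221 and 7.709 in bi. Asns was at 165.8 and 182 CPM in L and at 137.3 and 111.5 in bi, both controls being above B control. The test of the difference between the B ratio and the mean of L and bi gave an estimate of 3.57 for Trib3 (SE 0.95, adjusted p = 0.307), 2.71 for Asns (SE 0.47, adjusted p = 0.177) and 3.28 for Cth (SE 0.39, adjusted p = 0.113). None passed. Simulated data for the MYC term of the same model showed its power to be low, with 4% of 2-fold and 40% of 4-fold differences recovered among 23435 genes. Of its 52 calls at an adjusted p under 0.05, 8 were false, and for MYC in the model of L and bi 13 of 158. Adjusted p-values just under 0.05 in these fits are read with that limit.

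**Figure D3:**
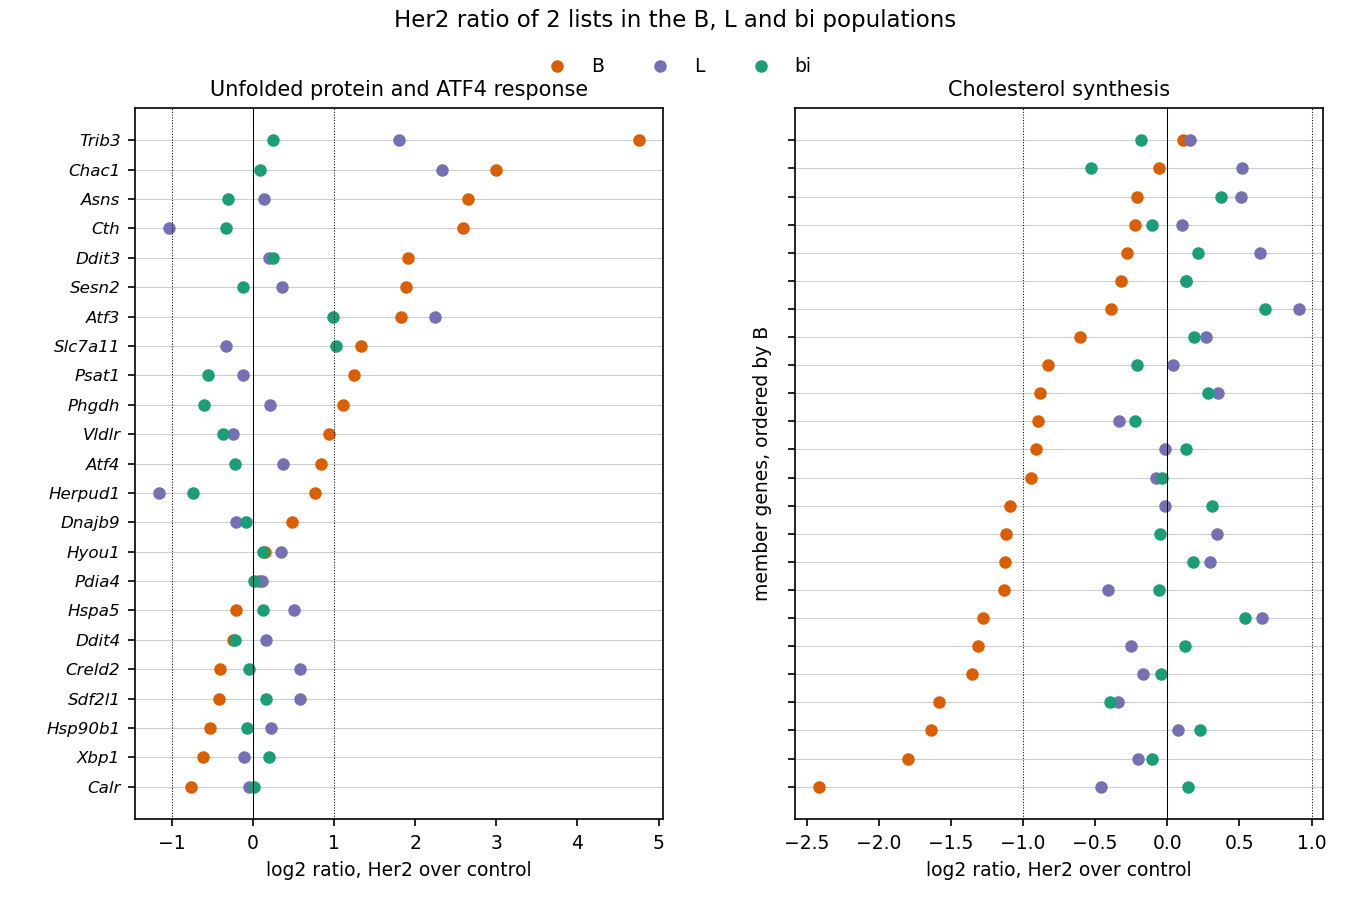
Log2 ratio of Her2 over control for each compared member of the unfolded protein and ATF4 list (left) and of the cholesterol synthesis list (right) in B, L and bi, with 1 row for each member, ordered by the ratio in B and named on the left only, and dotted lines at 2-fold. In the left panel 10 members pass 2-fold in B, led by Trib3 at 4.76, while Hspa5, Hsp90b1 and Calr lie below 0 in B. In the right panel 11 members are past 2-fold lower in B and none in L or bi.

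Cholesterol synthesis genes were lower in B Her2. Of 24 compared, 11 were at least 2-fold lower and none higher (median -0.93), and in B MYC 1 was lower (median -0.31). Of all compared genes 5.82% were lower in B Her2 and 4.34% in B MYC. Idi1, the isopentenyl diphosphate isomerase gene, was at 132 CPM in control, 63.94 in MYC and 24.76 in Her2, a Her2 ratio of -2.41 (-2.50 to -2.33). Cyp51, a sterol demethylase gene, was at 245, 164.4 and 70.59, and Insig1, a sterol-sensing regulator gene, at 67.38, 66.51 and 22.46. The B Her2 library was the lowest of the B libraries in each. Srebf2, which encodes the factor that controls the pathway, was at 320.3, 374.3 and 274.5 CPM, past 2-fold in neither arm. Median Her2 ratios were 0.09 in L and 0.13 in bi, with no member past 2-fold. The interaction with population had an adjusted p of 0.169 for Idi1 (-2.26, SE 0.36) and 0.228 for Cyp51 (-1.63, SE 0.34). The sterol element written TCACNCCAC, likewise chosen after the ratios were seen, occurred in 1 of 19 promoters of the list (5.26%) and in 1.18% of those of compared genes. That match is in Hmgcs1, which encodes HMG-CoA synthase and had a Her2 ratio of -1.31.

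The match lies 137 bases before the start of Hmgcs1, at chr13:119690194-119690242 on the plus strand of GRCm38.p6, and is shown with its capitals at the element.
Hmgcs1: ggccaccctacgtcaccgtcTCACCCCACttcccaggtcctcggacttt

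Contractile, basal and matrix genes were lower with Her2, some with both oncogenes. Acta2, the smooth-muscle actin gene, was at 256.2 CPM in B control, at 110.8 in B MYC and at 15.38 in B Her2, and Tagln, a calponin-family gene of contractile cells, at 30.87, 2.141 and 1.637. Oxtr, which encodes the oxytocin receptor of myoepithelial cells, was at 14.06, 15.63 and 0.571 CPM (Her2 ratio -4.55, -5.20 to -4.10). Of 12 compared basal and myoepithelial markers, 8 were lower in B Her2 (median -1.38) and 2 in B MYC (median -0.17), beside 5.82% and 4.34% of all compared genes. Krt14 was at 1441, 1375 and 752.2 CPM, just short of 2-fold, and Itga6, the integrin alpha 6 gene, at 476.3, 410 and 412.3. Oxtr was also lower in L Her2 (-2.37) and bi Her2 (-1.32), and Acta2 had ratios of -2.27 and -1.504.

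Among 17 compared collagen chains, 10 were lower in B Her2 (median -1.72) and 4 in B MYC (median -0.72), none higher. Of all compared genes 5.82% and 4.34% were lower. Col12a1, a chain that coats fibrillar collagen, was at 1846, 2044 and 83.2 CPM, a Her2 ratio of -4.47 beside 0.15 for MYC. Col1a1 was at 35.51, 4.715 and 2.36 CPM. Postn, the matricellular periostin gene, was at 1250, 310.8 and 8.507 CPM in B, and 386.3 in L MYC against 23.97 in L control. Among others lower with Her2 alone were the proteoglycan gene Prelp (26.22, 29.18 and 1.256 CPM), the adhesion gene Chl1 (36.26, 42.57 and 2.36) and the receptor gene Notch1 (194.6, 183 and 65.12). Sfrp1, a secreted Wnt inhibitor gene, was at 58.92, 53.16 and 5.5 CPM in B. Medians of the collagen list were closer to 0 elsewhere, -0.28 and -0.19 with MYC and Her2 in L and -0.34 and -0.33 in bi. Single chains still moved both ways. In L Her2 4 of 17 were past 2-fold higher and 5 lower, where 4.76% and 3.61% of all compared genes were. In L MYC 1 was lower, in bi MYC 2 were higher and 3 lower, and in bi Her2 3 were lower. Keratinocyte differentiation genes had a median of -1.97 in B Her2, with 6 of 9 lower, beside 5.82% of all compared genes. The same median was 1.34 in L Her2 and 0.15 in bi Her2. Sprr1a, a cornified envelope gene, was at 13.07, 9.407 and 0.305 CPM in B control, MYC and Her2, and at 1.881 and 20.67 in L control and L Her2.

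MYC-alone genes included restraints on growth. Mxd4, a repressor that competes with MYC for MAX, was at 57.3 CPM in B control, at 136.1 in B MYC and at 50.83 in B Her2. Pdcd4, an inhibitor of the translation helicase eIF4A, was at 29.92, 99.7 and 33.11, and Bmf, a pro-death BCL2 family gene, at 1.598, 6.013 and 2.131. Txnip, a thioredoxin and glucose uptake inhibitor gene of the FOXO list that lay between the classes, was at 64.58, 205.1 and 114.6. The MYC library was highest in each. In the model of L and bi, Mxd4 (1.80, SE 0.22, adjusted p = 0.0261), Pdcd4 (2.13, SE 0.28, adjusted p = 0.0261) and Bmf (2.41, SE 0.20, adjusted p = 0.0169) rose with MYC, and all 3 calls held in the 9 alternatives. Mxd4 came under 2-fold in B MYC by TPM, at 0.82. Of 15 compared genes of the FOXO and PI3K restraint list, 5 were higher in B MYC (median 0.61), and in B Her2 1 was higher and 1 lower. Of all compared genes 4.28% were higher in B MYC, and 5.25% higher and 5.82% lower in B Her2.

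Other genes higher with MYC alone were the interleukin 1 receptor gene Il1r1 (9.938, 44.28 and 13.82 CPM), the retinol and alcohol dehydrogenase gene Adh7 (49.34, 178 and 47.39), the immune checkpoint gene Vsir (36.85, 117.3 and 39.66), Medag (6.168, 23.42 and 4.948) and Tcp11l2 (16.24, 60.52 and 20). For Medag the MYC ratio of 1.92 in B stood beside -1.03 in L and -0.21 in bi. Lower with MYC alone, beside Ereg, were the N-cadherin gene Cdh2 (42.72, 10.66 and 36.58 CPM), the lymphangiogenic gene Ccbe1 (73.23, 14.81 and 81.98), the fibrillin gene Fbn1 (13, 3.052 and 11), the erythroferrone gene Erfe (11.28, 2.164 and 8.088) and the serine protease gene Tmprss11b (28.77, 2.916 and 33.3). Cdh2 was at least 2-fold lower with MYC in all 3 populations (ratios of -1.78 in L and -2.47 in bi).

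Cell-cycle genes were lower in B MYC than in B control, though mostly by less than 2-fold. The G1/S and DNA replication list had a MYC median of -0.74 in B, with 9 of 40 genes lower and none higher, and a Her2 median of 0.39 with 1 higher. Of all compared genes 4.34% were lower in B MYC and 5.25% higher in B Her2. Cdc6, a replication licensing gene, was at 19.15, 6.446 and 24.17 CPM in B control, MYC and Her2, and E2f7, a repressing E2F gene, at 26.98, 9.886 and 18.54. Mitosis and G2/M genes were lower in both arms, with medians of -0.63 for MYC (2 of 40 past 2-fold lower, all compared genes 4.34%) and -0.79 for Her2 (13 of 40, all compared genes 5.82%). Plk1, the polo-like kinase gene of mitosis, was at 46.74, 26.45 and 15.47 CPM, and Cenpf, a kinetochore gene, at 136.9, 78.79 and 48.53. So in B Her2 the replication and mitosis lists had medians of different sign, a pattern without a counterpart in L Her2 (-0.27 and -0.14) or bi Her2 (-0.31 and -0.32), though this difference between populations was not tested for the lists. With MYC the medians were -1.18 and -0.99 in L and -1.60 and -1.19 in bi. In the model of L and bi, 37 of 40 replication genes and 34 of 40 mitosis genes fell with MYC, as did 2.63% of all 24492 genes tested. Without the bi control library those counts were 4 and 0, and without the L control library 19 mitosis genes fell.

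Growth genes known as MYC targets were near the median of all genes in B MYC. Of 30 in the list of growth and metabolism, none was higher and 1 lower (median 0.08, and -0.32 by TPM), and 4 were higher in B Her2 (median 0.34), beside 5.25% of all compared genes. The 4 were Odc1, Shmt2, Mthfd2 and Slc7a5. Ncl, the nucleolin gene, was at 601.8, 628.4 and 690.9 CPM and Cad, of pyrimidine synthesis, at 171, 129.4 and 168.9. Of the MYC network itself, 3 of 11 genes were higher and 1 lower in B MYC, beside 4.28% and 4.34% of all compared genes. The 3 were Mxd4, Mxi1 and Myc, which is the gene targeted in this arm, so its rise is part of the design. By TPM the MYC ratios of Mxd4 and Mxi1 came under 2-fold, at 0.82 and 0.66. None of 30 nucleolar genes was past 2-fold in B in either arm, with medians of 0.05 (MYC, -0.40 by TPM) and 0.31 (Her2). Cytosolic ribosomal proteins had a median of 0.81 in B MYC, 3 of 34 past 2-fold higher (all compared genes, 4.28%), and 0.46 in B Her2. Rplp0, a stalk protein gene, was at 169.2, 362 and 271.4 CPM. These medians were -0.14 and -0.04 in L and 0.13 and -0.44 in bi. The growth list had MYC medians of -0.64 in L and -0.74 in bi, and the nucleolar list -0.63 and -0.68 with all 30 genes below 0 in both. In the model of L and bi 8 and 10 of their 30 genes fell with MYC. Leaving out 1 library gave 0 to 21 and 0 to 24, with none of either list without the bi control.

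**Figure D4:**
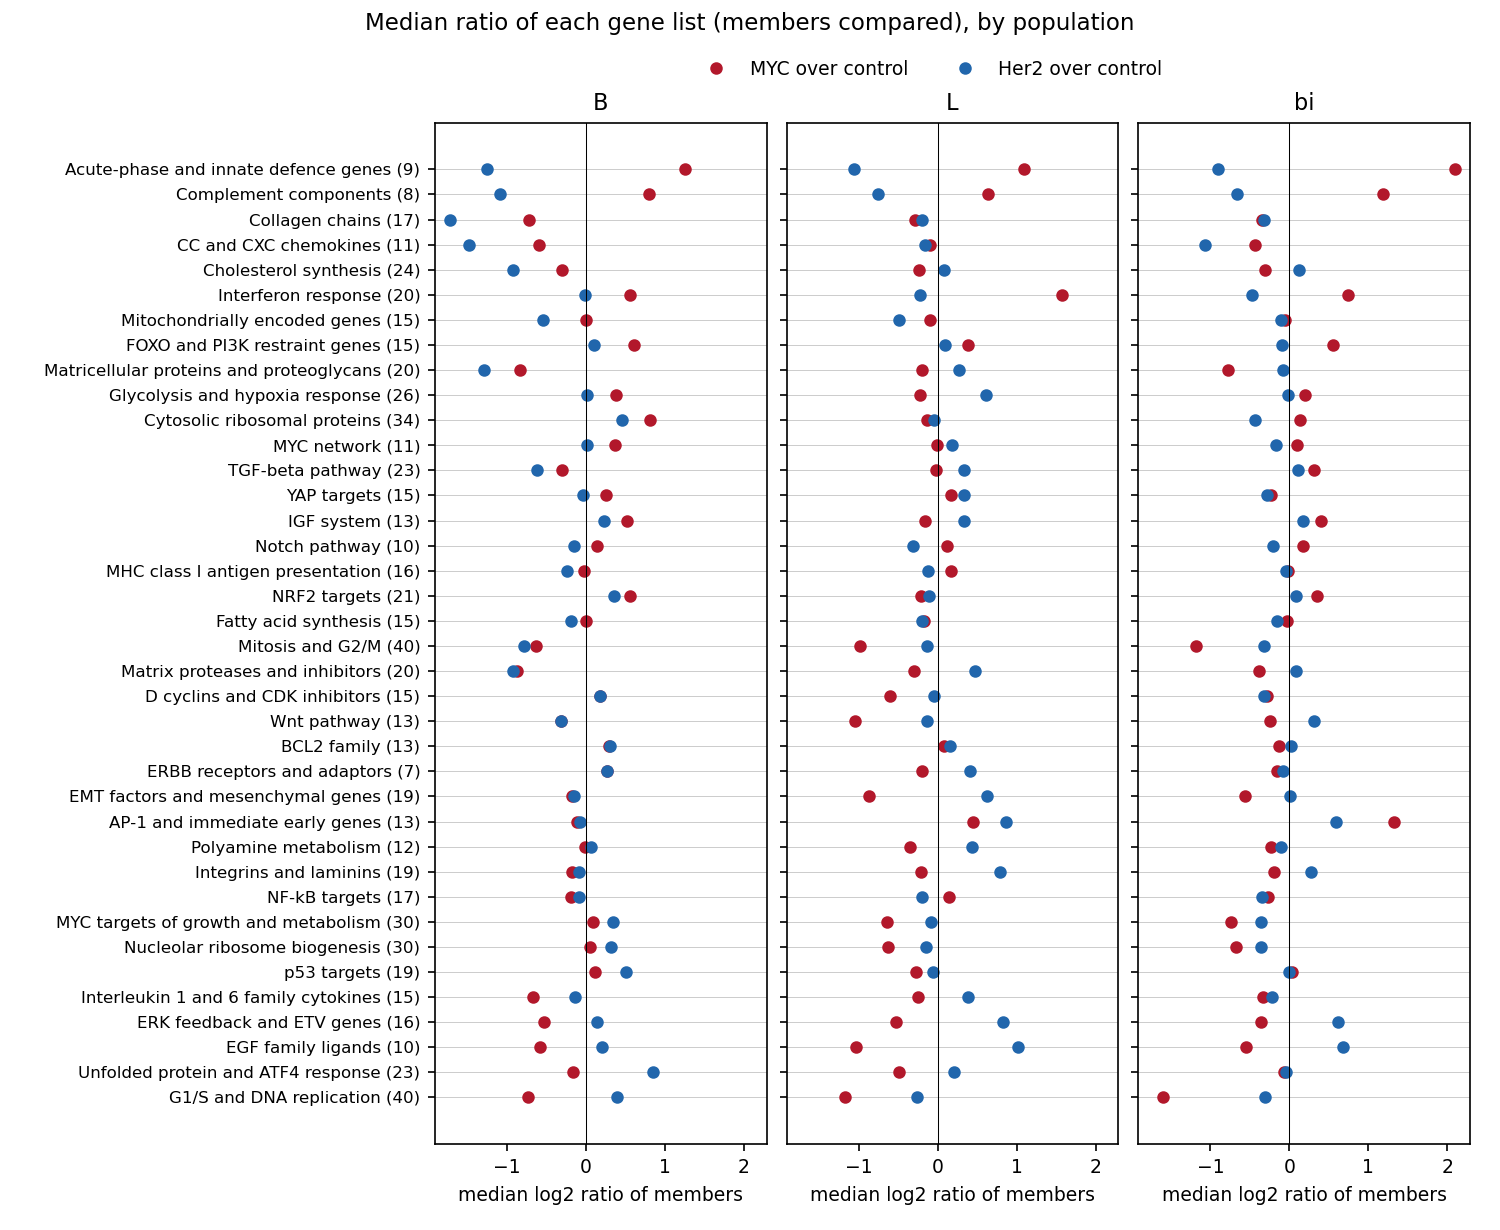
Median log2 ratio over control of the compared members of each pathway list (number in brackets) in B, L and bi, for MYC and Her2. Lists are ordered by the MYC minus Her2 difference in B, where both arms share 1 control. Acute-phase genes head the order in B with medians of 1.25 and -1.26, and G1/S genes close it with -0.74 and 0.39. The same 2 lists keep the sign of their MYC median in L and bi.

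Genes lower in both arms gave the widest ratios of all, and rest on a high level in the shared B control. Mmp12, the macrophage elastase gene, was at 548.6 CPM in control, 22.03 in MYC and 7.65 in Her2, and the collagenase gene Mmp13 at 379.8, 24.85 and 20.5. Ccl11, the eotaxin gene, was at 81.83, 3.69 and 0.286 CPM. Mill1, an MHC class I-like gene at chr7:18245347-18266092, had 2263 reads in control, 6 in MYC and 1 in Her2, and Psg18, a pregnancy-specific glycoprotein gene, 934, 12 and 1. The level of Mill1 in control was 287.7 times that in MYC (132 to 784.8) and 2066 times that in Her2 (370.4 to 81640). For Psg18 the same ratios were 59.37 (33.82 to 115.3) and 852.7 (152.7 to 33720). Psg18 belongs to a family of close copies among which reads may be split. In L and bi all 5 genes were at 5.65 CPM or less in every library, controls included.

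By list, matrix proteases and inhibitors had 9 of 20 genes lower in each arm (medians -0.87 for MYC and -0.93 for Her2) and 1 higher. Of all compared genes 4.34% were lower in B MYC and 5.82% in B Her2. Chemokines had 4 of 11 lower in B MYC and 8 of 11 lower in B Her2, with 1 higher in each: Cxcl12 with MYC and the neutrophil chemokine gene Cxcl2 with Her2 (5.542, 3.667 and 12.03 CPM). Inhba, the activin subunit gene, was at 205.7, 40.48 and 71.23 CPM, with ratios of -2.34 and -1.53, and in L and bi its ratios lay between -0.49 and 0.06. Igfbp3, an IGF carrier gene, was at 569.5, 262.8 and 141.5 CPM.

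Genes higher in both arms were led by ones at low levels in B control. Dcn, which encodes the proteoglycan decorin, was at 1.199 CPM in control, 24.92 in MYC and 25.31 in Her2, with log2 ratios of 4.34 and 4.37. Cdsn, the corneodesmosin gene, was at 0.938, 10.02 and 53.21 CPM, Car6, a secreted carbonic anhydrase gene, at 0.348, 4.715 and 74.41, and Avil, the actin-binding advillin gene, at 0.365, 6.31 and 14.1. Arhgap20 was at 3.631, 26.63 and 20.74, and Chchd10, a mitochondrial protein gene, at 1.633, 7.152 and 15.87. The pro-death genes Bbc3 (PUMA; 2.12, 4.966 and 8.107 CPM) and Trp53inp1 (19.93, 59.79 and 47.31) were higher in both too. Over the 19 compared p53 targets 3 were higher and 1 lower in B MYC, and 6 higher and 1 lower in B Her2. Of all compared genes 4.28% were higher and 4.34% lower in B MYC, and 5.25% and 5.82% in B Her2. Car6 was at 0.27 to 1.26 CPM in L and bi apart from 4.836 in bi MYC. Il13ra2, a decoy receptor gene, was at 1.79, 35.24 and 6.68 CPM in B.

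The share of each class past 2-fold in L and bi was set against that of all compared genes. Of the 153 genes higher with MYC alone, 19.61% were at least 2-fold higher in L MYC and 39.22% in bi MYC, where 2.6% and 4.72% of compared genes were. Of the 127 lower, 28.35% were lower in L MYC and 37.8% in bi MYC (4.16% and 6.05%). The Her2-alone classes were found more in L than in bi. Of the 219 higher, 29.68% were higher in L Her2 and 11.87% in bi Her2 (4.76% and 3.72%), and of the 237 lower, 32.91% and 10.13% were lower (3.61% and 2.32%). Of the 198 genes higher in both B arms, 10.61% were higher in L MYC, 12.12% in L Her2 and 32.83% in bi MYC, but in bi Her2 3.03% were higher (all compared genes, 3.72%) and 8.586% lower (2.32%). Of the 292 lower in both, 19.86% were lower in L MYC, 18.49% in L Her2 and 33.9% in bi MYC, while bi Her2 split into 12.33% lower and 12.67% higher.

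Some B classes leaned the other way in the other arm's libraries. Of the 127 genes lower with MYC alone, 29.92% were at least 2-fold higher in L Her2 and 18.9% in bi Her2. Of all compared genes 4.76% and 3.72% were. Of the genes higher with MYC alone 18.3% were lower in L Her2, beside 3.61% of all compared genes. Thus Ereg, Cdh2, Ccbe1 and Tmprss11b, with Her2 ratios of -0.49 to 0.21 in B, had ratios of 1.60 to 2.502 in L Her2. In bi Her2 Ereg (1.06) and Tmprss11b (1.95) were higher too, while Cdh2 (-0.45) and Ccbe1 (-0.09) were not. A Her2 ratio under 0.5 in size in B follows from the rule of the class, and these 4 genes were chosen after their values were seen. Whether B differs from L in this was not tested gene by gene beyond the interaction with the mean of L and bi.

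**Figure D5:**
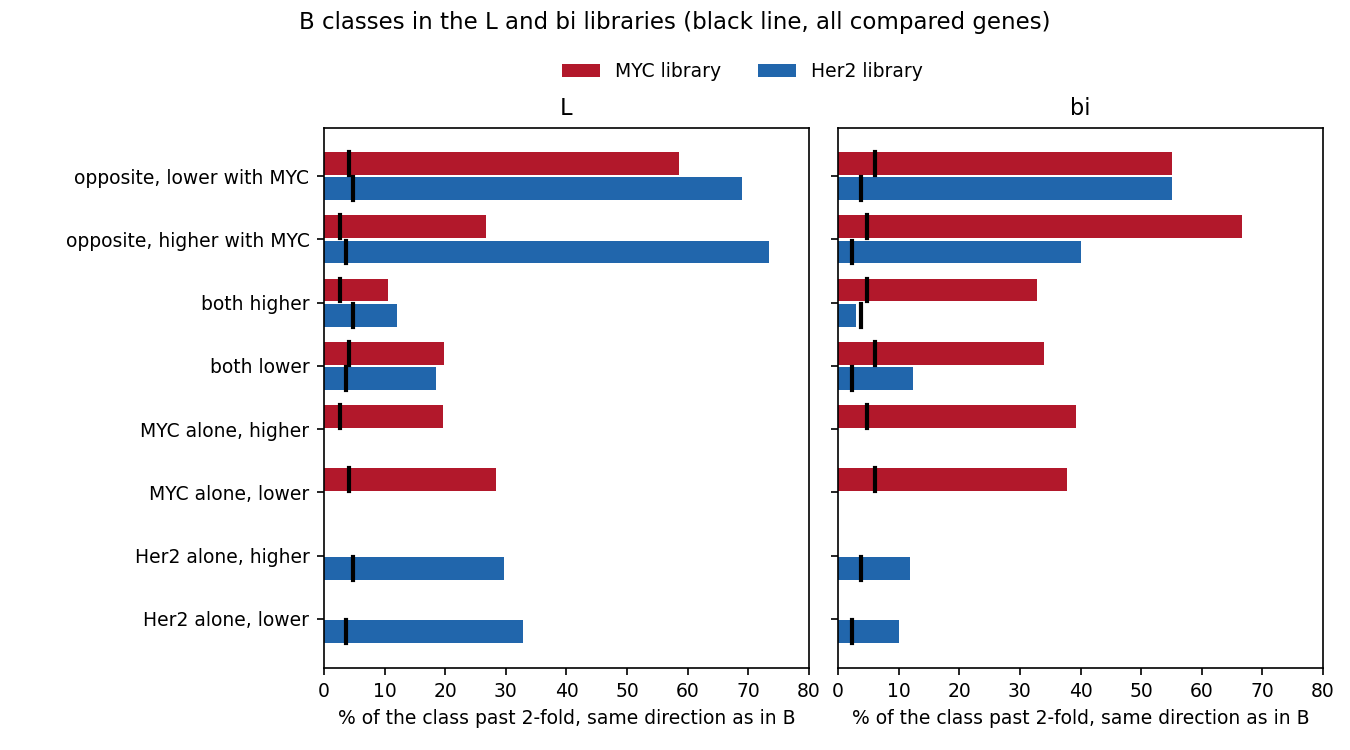
Share of each B class (y axis, classes of 15 to 292 genes) past 2-fold in the same direction in the L and bi libraries, in % on the x axis from 0, with red bars for the MYC and blue bars for the Her2 library over its own control. Black lines mark the share of all compared genes. Both opposite classes exceed the line in each library, by 26.67% to 73.33% against 2.32% to 6.05%, while genes higher in both arms fall below it in bi Her2.

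The model of the 6 L and bi libraries called 844 of 24492 genes for MYC at an adjusted p under 0.05 (3.45%, 200 higher, 0.817%, and 644 lower, 2.63%) and 6 for Her2, all higher (0.0245%). Of the 595 genes lower in B MYC, 592 were tested in it and 93 fell (15.7%), with 5 that rose, and of the 587 higher, 585 were tested, 57 rose (9.74%) and 3 fell. Leaving out a library changed the count for MYC from 182 (without bi control) to 3610 (without L Her2) and for Her2 from 6 to between 213 and 1433. The interaction of population and oncogene, which sets the B ratio against the mean of L and bi with 2 residual degrees of freedom, called no gene for MYC with edgeR (1689 of 23834 at an unadjusted p under 0.05, and 87 with DESeq2). For Her2 it called Mill1 (0.0042%; 2726 at an unadjusted p under 0.05, and 299 genes with DESeq2). The next named genes were Mmp12 (-6.19, SE 0.63, adjusted p = 0.068) and Cth.

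Set directly against each other, without the control, B MYC and B Her2 differed by at least 2-fold in 1151 genes (8.39%), 632 higher in MYC (4.61%) and 519 higher in Her2 (3.78%). By library totals the split was 498 and 661, and by TPM 405 and 810. For Areg the MYC to Her2 ratio was -5.90 on the log2 scale. EGF family ligands had 4 of 10 members lower in MYC than in Her2 and 1 higher.

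Promoters of the classes were searched for further motifs on both strands, CACGTG (the E-box that MYC and MAX bind), TGACTCA or TGAGTCA (AP-1) and CCGGAAGT (ETS). CACGTG was in 5.93% of 135 promoters of genes higher with MYC alone and 10.5% of 95 of those lower, against 9.93% of compared genes and 7.15% of all promoters. The AP-1 motif was in 12.4% of promoters of genes lower in both arms and 11.6% of those lower with MYC alone, against 3.98% of compared genes and 5.2% of all. CCGGAAGT was in none of 194 promoters of genes lower in both arms and in 8.09% of compared genes. This scarcity was not particular to that class. The motif was also in none of the promoters of genes lower with Her2 alone. It was in 0.741% and 2.11% of promoters of genes higher and lower with MYC alone. For genes higher in both arms and with Her2 alone the shares were 3.23% and 3.57%. Genes past 2-fold in neither arm had 9.03%. A further motif was searched in the same promoters and is not reported here. Promoters were found for 9729 of 13707 compared symbols.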

How the data were processed

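RNA-seq of 9 libraries, 1 for each of 3 populations and 3 arms, was analysed from gene tables. Per the submitters' processing notes, reads were quantified with Salmon 0.9.1 on mm10, and the annotation release is not given in the sources used here. Per the file headers, the authors deposited estimated counts per gene, TPM (scaled for transcript length and depth) and gene lengths. The labels name a stranded kit with ribosomal RNA removal beside a polyA molecule label, and 2 RNA kits without saying which served which library.

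Estimated counts were rounded and scaled by TMM (edgeR 4.0.16, R 4.3.3). Log2 CPM ratios used a prior of 2 reads and genes with a mean of at least 1 CPM in B, about 44 reads in the smallest B library. Counting intervals (95%) are exact and cover counting error only, and the floor of 3 reads is 0.05212 to 0.06833 CPM in B. The model of L and bi (population and arm) and the interaction of B with L and bi were edgeR quasi-likelihood fits with Benjamini-Hochberg adjustment, each with 2 residual degrees of freedom, tested on simulated data. Symbols came from GENCODE M21 (53544 IDs matched with version, 563 without, 174 not). Coordinates and promoters are from GRCm38, the promoters from RefSeq. Genes were named by rank within each class (up to 6 with a mean of at least 5 CPM) and within each list (up to 3 each way). Other genes with a printed value were chosen after values were seen. Members, lists and rules were chosen with earlier results of these data known. Alternatives were other scalings, filters, priors, folds, DESeq2 1.42.0 and leaving out each L or bi library. Some genes of the lists are counted but not reported here by name.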

Additional observations from a re-analysis of the deposited data

Results flagged for a closer look

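For Mill1, an MHC class I-like gene, the test of the difference between populations passed its threshold. Its Her2 response in B minus the mean of those in L and bi was -10.5 on the log2 scale (SE 0.81, edgeR quasi-likelihood adjusted p = 0.0474), and the call held in all 9 alternatives. These were DESeq2, its size factors, no filter, and leaving out each L or bi library, but none of B. Its level within B was 39.32 CPM without an oncogene (2263 reads), 0.1367 CPM with MYC (6 reads) and 0.01903 CPM with Her2 (1 read). Levels in the L and bi libraries were 0.584 to 5.65 CPM. The same difference for MYC was -8.58 (SE 0.68, adjusted p = 0.0568). B has 1 library per arm, so the spread in both tests comes from L and bi alone, none from B, and the part of the 1 B control library in the result was not tested.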

How the results depend on the processing

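The count of genes past 2-fold moved with the filter and the fold. B MYC gave 496 genes at a mean of at least 10 CPM, 6723 with no filter and 304 at 3-fold, B Her2 gave 728, 6859 and 556, and B MYC against B Her2 gave 573 and 5931 (10 CPM, no filter). The 1270 genes in the classes became 584, 6974 and 328 under the same settings and 2167 with no gap between classes. The share of B MYC calls found again was 11.56% (no filter) and 11.84% (3-fold) in L, and 18.68% (no filter) in bi, settings added after the data were seen. MYC in L and bi called 1551 genes with DESeq2, 500 with its size factors and 182 to 3610 with 1 library left out. Her2 in L and bi called 612 and 42, 417 with no filter and 213 to 1433. The interaction for MYC called 87 with DESeq2, 1 with its size factors, 67 with no filter and 12 to 556, and for Her2 299 with DESeq2, 256 with no filter and 181 to 1042. The MYC ratio of Bmp4 went from 1.001 to -0.151 by TPM. Of 2838 named ratios under alternatives 2384 moved little, and 1858 of 1921 past 2-fold stayed so, with each ratio counted once for each setting. Counted by ratio, 40 of those past 2-fold fell below it under 1 setting or more. Of 80 list medians 25 changed sign under a setting, none over 0.38 in size. For these the cause was not tested. No paired analysis was possible because no group has numbered replicates, although the model of L and bi holds population as a block. Low counts limit Hp, Mill1, Psg18 and Wnt7a.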

Other observations

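The Notch list and the interleukin 1 and 6 list are described here. Dll1, a Notch ligand gene, was at 72.14 CPM in control, 251 with MYC and 119 with Her2, and Jag1, another ligand gene, at 417.3, 221.7 and 127.2. Hes1, a target of the pathway, was at 62.93, 52.21 and 27.96 CPM. Of 10 compared genes of the Notch list 1 was higher and 1 lower in B MYC, and 1 higher and 4 lower in B Her2, where 4.28% and 4.34% (MYC) and 5.25% and 5.82% (Her2) of all compared genes were. Between B MYC and B Her2 directly, 3 were higher in MYC and 1 in Her2 (4.61% and 3.78%). Il1a, the interleukin 1 alpha gene, was at 61.76, 27.9 and 143.9 CPM and Il1rn, the gene of the receptor antagonist, at 16.85, 42.98 and 12.83. Il1rl1, which encodes the receptor of interleukin 33, was at 39.58, 4.214 and 23.48 CPM. Lifr, the receptor gene of the cytokine LIF, was at 286.3, 168.5 and 43.98. Of 15 compared genes of the interleukin 1 and 6 list 3 were higher and 5 lower with MYC, and 4 higher and 2 lower with Her2, and between the arms 7 were higher in MYC and 6 in Her2.

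In B Her2 5 of 15 mitochondrially encoded genes were lower and none higher, where 5.82% and 5.25% of all compared genes were. The 5 included mt-Co2 of respiratory complex IV, at 153.1, 118.7 and 43.96 CPM. They also included the ribosomal RNA genes mt-Rnr1 and mt-Rnr2, with Her2 ratios of -1.40 and -1.45. The part of ribosomal RNA removal in these ratios was not tested. The share of reads on these genes was 0.9302%, 0.9392% and 0.6386%. Interferon response genes had 4 of 20 compared members lower in B Her2, beside 5.82% of all compared genes. None was past 2-fold in B MYC (median 0.56, 15 of 20 above 0). In L MYC 13 were higher and in bi MYC 6 (all compared genes, 2.6% and 4.72%). Ifih1, a sensor gene of viral RNA, was at 8.548, 5.171 and 3.064 CPM in B, lower with MYC unlike most of the list, while it rose with MYC in the model of L and bi (1.83, SE 0.22, edgeR quasi-likelihood adjusted p = 0.0261).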
